A study of Mus musculus with 36 samples.

Results

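Wild-type (WT) keratinocytes grown for 72 h in low calcium medium (LCM) were compared with the same kind of culture at 24 h, so that the comparison asks what changes with time in culture while calcium is kept low. The cell density at harvest is not given in the sources used here, and its part cannot be told apart from that of time. The samples were picked by their labels: 3 libraries at 72 h and 3 at 24 h, 6 of the 36 libraries of the series. The library titles carry HD for the 72 h samples and LD for the 24 h samples. The study's text does not say what these tags stand for. The cells were primary keratinocytes isolated from the epidermis of newborn Pkp4+/+ mice backcrossed onto C57BL/6J, grown on collagen I at 32 °C in medium with 50 µM calcium chloride, calcium-free serum, EGF, insulin, hydrocortisone and cholera toxin. The other 30 libraries came from WT cells in high calcium medium (HCM, the same medium with 1.2 mM calcium chloride added) and from PKP4-KO and Rescue cells in both media at 24 h and 72 h. PKP4-KO cells lack plakophilin 4, and Rescue cells are PKP4-KO cells that carry a lentiviral GFP-tagged human PKP4. The 3 libraries of each group are described as biological replicates, and whether they came from separate pups is not given in the sources used here.

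Keratinocytes of the basal epidermal layer divide while they are attached to the basement membrane through integrins and laminin-332. When they leave it they stop dividing, replace the basal keratins K5 and K14 by K1 and K10, and later assemble the cornified envelope from proteins such as loricrin and the small proline-rich proteins, cross-linked by transglutaminases. In culture this program is normally started by raising calcium. Cells kept in low calcium remain largely basal, although dense cultures begin parts of the program, and freshly plated cells pass through a wound-like state with activated EGF receptor signaling and chemokine release.

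At 72 h the cells held more mRNA for most basal and stress keratins and for some of the early and late differentiation markers and fate transcription factors, with Krt15 first by the size of its rise, and less mRNA for some of the chemokines, EGF receptor ligands and feedback genes, integrins, laminin-332 chains and genes of DNA replication, with the activin inhibitor gene Fst first among the falls. Genes are ordered here by the size of the change. The order takes protein-coding genes with an adjusted p below 0.05, at least 10 CPM in the higher group and no overlap of libraries. Of 15114 genes tested, 1505 (9.96%) changed at an adjusted p below 0.05 in edgeR's quasi-likelihood test, 800 (5.29%) upwards and 705 (4.66%) downwards, and 3478 had an unadjusted p below 0.05. Levels are given as TMM-scaled CPM, the counts of a gene as a share of the scaled library total. Changes are the log2 of 72 h over 24 h, given as value ± standard error (SE), and "rose" and "fell" are used for genes that passed this test. The median change of all tested genes was -0.02 on the log2 scale. Among the called genes the median size of the change was 0.845 on the log2 scale, 306 rose and 314 fell by at least 1, and 59 rose and 140 fell by at least 2. The 3 libraries at 72 h lay entirely on one side of the 3 at 24 h for 33.3% of all tested genes, and for 1450 of the 1505 called genes.

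The split between rises and falls depended on the scaling. The 24 h libraries held 13602728 to 15678952 counts and the 72 h libraries 19463812 to 21658763, so depth and culture time moved together and cannot be told apart, and the 10 most abundant genes took 12.2% to 13.02% of the counts at 24 h and 14.98% to 15.95% at 72 h. The TMM factors were 1.391, 1.201 and 1.226 for replicates 1 to 3 at 24 h and 1.025, 1.166 and 1.088 at 72 h. Without them 1265 genes were called, 27.3% of which rose, against 53.2% with them, and the median of all genes moved to -0.24. The values below are those with TMM. With counts thinned to the smallest library 1481 genes were called.

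A library stood apart. WT 24 h replicate 1 held transcripts of neurons and glia: over 14 such genes, a list made after the values had been seen, the summed level was 260, 25.7 and 5.36 CPM in replicates 1, 2 and 3 at 24 h and 5.76, 4.39 and 4.14 at 72 h. The astrocyte gene Gfap had 368, 25 and 4 counts at 24 h and 2, 4 and 1 at 72 h. In the other 30 libraries this sum ran from 2 to 91.7, with a median of 8.93. A list of 10 liver genes summed to 6.71, 4.43 and 0 at 24 h and to at most 0.198 at 72 h. Of these genes, 5 of the 13 tested neuron and glia genes and 1 of the 2 tested liver genes were among the 705 called falls. Replicate 1 also held the most detected genes, 19639 against 18310 and 16878 in replicates 2 and 3 and 17278 to 17526 at 72 h.

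The effect of that library on the calls was measured by leaving it out. Without it 915 genes were called, 429 up and 486 down, of which 874 were among the 1505, and every one of the 1505 kept its sign. The largest falls were the most affected, since 62 of the 140 that fell by at least 2 and 9 of the 52 that fell by at least 4 were still called, against 39 of the 59 rises of at least 2. Leaving out another single library gave 903 calls (72 h replicate 1), 960 (72 h replicate 3), 1164 (24 h replicate 3), 1201 (24 h replicate 2) and 1219 (72 h replicate 2), so the removal of either of 2 libraries at 72 h reduced the calls about as much. Without both 24 h replicates 1 and 2 there were 420 calls, and 19 of the 1505 changed sign. Of the 150 called genes considered by name, 97 stayed called when any single library of the 6 was left out, and where one of the others is described, the removals that ended its call are given with the value.

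The labels were checked against the genes that define the cells. Pkp4, the gene altered in the rest of the series, had 1443, 1164 and 1328 counts at 24 h and 786, 1129 and 860 at 72 h, and it fell by 0.79 on the log2 scale (SE 0.16, adjusted p = 0.00112). The row for the GFP-PKP4 transgene, which these cells should lack, held 0, 1 and 82 counts at 24 h and 100, 78 and 56 at 72 h, against 1902 to 15325 in the Rescue libraries. Over 10 keratinocyte markers the levels summed to 37800 to 45300 CPM at 24 h and 54300 to 65100 at 72 h, and Krt5, Krt14 and Perp rose while Itgb4 fell. The levels of 10 fibroblast markers summed to 12 to 19.1 at 24 h and 6.59 to 7.88 at 72 h, with 3 of the 10 at no more than 3 counts in any of the 6 libraries, and 8 immune markers to 0.312 to 1.64 and 0.0909 to 0.201. For 8 melanocyte markers the sums were 0.7 to 2.75 at 24 h and 1.27 to 1.55 at 72 h, for 6 endothelial markers 3.69 to 5.13 and 3.06 to 4.55, and for 6 Merkel cell markers 24.6 to 29.2 and 20.9 to 23.2. No tested marker of these 5 other cell types was called in either direction, but many were not tested. The filter on low counts left 6 of 10 fibroblast, 3 of 8 melanocyte and 2 of 8 immune markers. It left 2 of 6 endothelial and 4 of 6 Merkel cell markers. The part of these levels in the results was not tested, and in such bulk libraries fewer cells of a kind cannot be told apart from less RNA per cell.

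The first of the rises in this order was that of Krt15 (chromosome 11, 100022584 to 100026775, GRCm39), a keratin of quiescent basal cells and of hair follicle stem cells. Its levels were 6.71, 6.3 and 8.07 CPM in replicates 1 to 3 at 24 h (mean 7.03 ± 0.925, SD, n = 3) and 73.2, 46.2 and 63.8 CPM at 72 h (mean 61.1 ± 13.7, SD, n = 3). The ranges were far apart, although a call and a lack of overlap were conditions of this order. Krt15 rose by 3.12 ± 0.27 on the log2 scale (adjusted p = 2.01e-08). The thioesterase gene Them5 had 2.01, 2.1 and 2.76 CPM at 24 h and 16.7, 13.9 and 15.2 CPM at 72 h, with groups far apart. Them5 rose by 2.73 ± 0.29 on the log2 scale (adjusted p = 2.77e-07). Glul, which encodes glutamine synthetase, had 27.5, 16.9 and 17 CPM at 24 h and 82.5, 82.6 and 82.3 CPM at 72 h, and its 72 h values were nearly identical. Glul rose by 2.01 ± 0.36 on the log2 scale (adjusted p = 0.000357). The stress keratin gene Krt23 had 2.48, 2.97 and 2.19 CPM at 24 h and 14.1, 8.47 and 8.09 CPM at 72 h. Krt23 rose by 2.00 ± 0.34 on the log2 scale (adjusted p = 0.000225).

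Among the other leading rises, Gm94, Cables1 and Pdcd4 gained 1.99, 1.98 and 1.93 on the log2 scale, where Cables1 encodes an adaptor of cyclin-dependent kinases and Pdcd4 an inhibitor of translation initiation. Klk14 and Klk13, trypsin-like kallikreins that cut corneodesmosomes, rose by 1.92 and 1.91. Sdr16c5, a retinol dehydrogenase, rose by 1.90, Il18, a cytokine made by keratinocytes, by 1.87, and the cornified envelope gene Sprr3 by 1.86. That the libraries of 72 h lay above those of 24 h in all 12 leading rises follows from the rule that picked them.

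The first of the falls in the same order was that of Fst (chromosome 13, 114588731 to 114595521, GRCm39), whose product follistatin binds and inhibits activin. Its levels were 64.8, 69.5 and 81.3 CPM in replicates 1 to 3 at 24 h (mean 71.9 ± 8.5, SD, n = 3) and 6.07, 7.68 and 6.59 CPM at 72 h (mean 6.78 ± 0.824, SD, n = 3). Each 72 h library lay far below each 24 h library, although a call and a lack of overlap were conditions here too. Fst fell by 3.40 ± 0.36 on the log2 scale (adjusted p = 3.14e-07). Moxd1, a monooxygenase-like gene, had 9.78, 12.8 and 11.2 CPM at 24 h and 1.4, 1.86 and 0.9999 CPM at 72 h. Moxd1 fell by 2.97 ± 0.42 on the log2 scale (adjusted p = 2.27e-05). The scaffold gene Akap12, which anchors protein kinase A, had 34.4, 36 and 29.6 CPM at 24 h and 5.16, 4.87 and 3.09 CPM at 72 h. Akap12 fell by 2.93 ± 0.32 on the log2 scale (adjusted p = 5.04e-07). The urokinase receptor gene Plaur had 15.4, 22.6 and 21.8 CPM at 24 h and 4.11, 3.96 and 5.64 CPM at 72 h. Plaur fell by 2.12 ± 0.21 on the log2 scale (adjusted p = 1.01e-07). For all 4 of these genes each 72 h library lay below each 24 h library, a condition of the order for Fst, Moxd1 and Akap12.

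The leading falls also held Prl8a1 of the prolactin family (-2.63), the potassium channel gene Kcnn4 (-2.27), the sialomucin gene Podxl (-2.24) and the adhesion gene Epcam (-2.21), besides 4 chemokine genes described further on. All 24 leading genes were still called without 24 h replicate 1, without any other single library, and under each other alternative that kept at least 2 libraries per group. The plot of the leading genes shows each library.

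**Figure D1:**
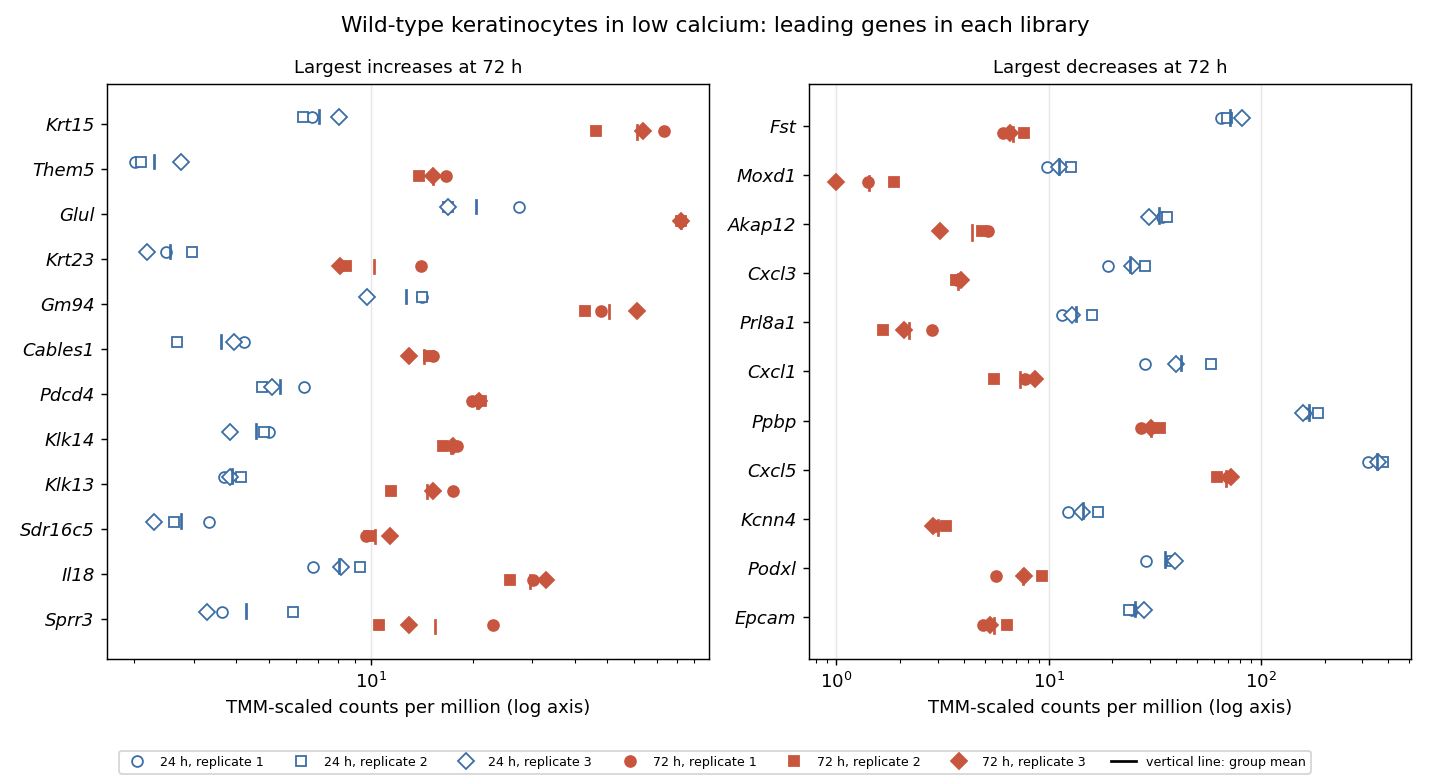
Levels of 12 genes with the largest rise (left) and 11 of the 12 with the largest fall (right) in WT keratinocytes in LCM, chosen among protein-coding genes with at least 10 CPM in the higher group and no overlap of libraries, in TMM-scaled CPM on a log axis; open blue symbols are the 3 libraries at 24 h, filled red symbols the 3 at 72 h, and short vertical lines the group means. By this choice the symbols of the 2 times do not overlap in any gene shown, as for Krt15 with 6.30 to 8.07 at 24 h and 46.2 to 73.2 at 72 h.

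Gene groups were read from 37 lists. The plot of the lists shows the groups ordered by their median, from 1.31 for the suprabasal keratins and early differentiation genes to -1.06 for the EGF receptors and ligands, against -0.02 for all tested genes. The background for the counts that follow is 5.29% of genes called up and 4.66% called down. Where a list had no call in a direction by edgeR (13 lists for falls and 10 for rises), 0 to 4 of its members moved that way at an unadjusted p below 0.05, and DESeq2 called 0 or 1. Without TMM factors the rises went from 7 to 1 in the ribosomal protein list, from 6 to 3 in the glycolysis and hypoxia list, and from 3 to 0 both in the oxidative phosphorylation and in the heat shock list.

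**Figure D2:**
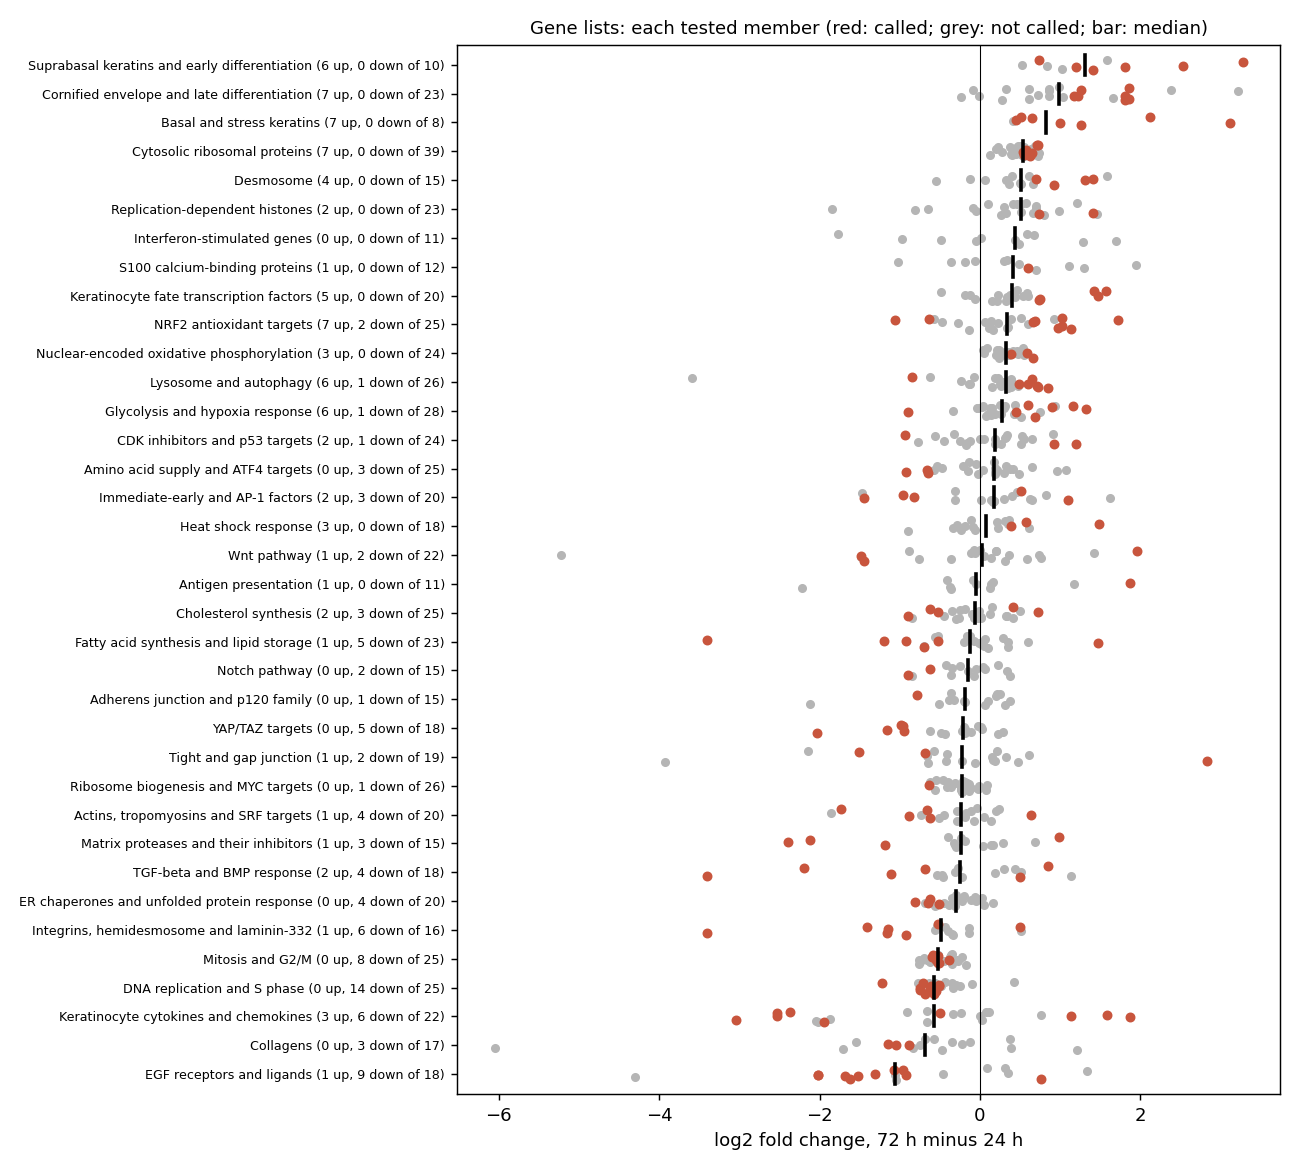
Change of every tested member of 36 of the 37 gene lists, as log2 of 72 h over 24 h on the horizontal axis; red points are called genes, grey points are not called, and black bars are the list medians. The suprabasal keratin, cornified envelope and basal keratin lists stand at the top, with 7 of 8 basal and stress keratins called up. The EGF receptor list stands at the bottom, with 9 of 18 members called down.

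Keratin genes rose across classes. Of the 8 basal and stress keratins, 7 rose and none fell, with a median of 0.82, and 4 to 7 were called when single libraries were left out (4 without 24 h replicate 1). Krt5, the basal type II keratin, had 10545, 13399 and 12381 CPM at 24 h and 20262, 17657 and 18874 CPM at 72 h, and the groups did not overlap. Krt5 rose by 0.64 ± 0.18 on the log2 scale (adjusted p = 0.0201), but the call was lost without 72 h replicate 1 (adjusted p = 0.0754), 72 h replicate 3 (adjusted p = 0.0549), 24 h replicate 1 (adjusted p = 0.111) or 24 h replicate 3 (adjusted p = 0.0506). The wound-induced keratin gene Krt16 had 3103, 3877 and 2957 CPM at 24 h and 8822, 6702 and 8271 CPM at 72 h. Krt16 rose by 1.26 ± 0.16 on the log2 scale (adjusted p = 4.65e-06). Its partner gene Krt6b had 2089, 2342 and 1642 CPM at 24 h and 4524, 3422 and 4197 CPM at 72 h. Krt6b rose by 0.9996 ± 0.19 on the log2 scale (adjusted p = 0.000794), although Krt6a and Krt6b are near-identical copies and reads could be split between them. Krt75, of the hair follicle companion layer, had 0.528, 0.525 and 0.364 CPM at 24 h and 2.41, 1.98 and 1.82 CPM at 72 h. Krt75 rose by 2.12 ± 0.41 on the log2 scale (adjusted p = 0.000918).

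The 10 tested suprabasal keratin and early differentiation genes all had positive changes, and 6 rose, with a median of 1.31 (4 rose without 24 h replicate 1 or 2). Krt10, the suprabasal type I keratin, had 8.35, 9.5 and 11 CPM at 24 h and 38, 29.8 and 33.3 CPM at 72 h. Krt10 rose by 1.81 ± 0.39 on the log2 scale (adjusted p = 0.00264). Its partner gene Krt1 had 0.846, 0.641 and 0.677 CPM at 24 h and 6.72, 5.98 and 8.54 CPM at 72 h. Krt1 rose by 3.28 ± 0.57 on the log2 scale (adjusted p = 0.000291). Per kilobase of transcript the mean level at 72 h was 15.9 for Krt10 and 1.6 for Krt1, against 8617 for Krt5 (RPKM). The calmodulin-like gene Calml3 had 0.211, 0.583 and 0.416 CPM at 24 h and 3.46, 1.58 and 2.05 CPM at 72 h. Calml3 rose by 2.53 ± 0.55 on the log2 scale (adjusted p = 0.00275). The desmosomal cadherin gene Dsg1a had 29.97, 17.1 and 20.6 CPM at 24 h and 49.9, 67.2 and 62.6 CPM at 72 h. Dsg1a rose by 1.41 ± 0.37 on the log2 scale (adjusted p = 0.0119), a call that was lost without 24 h replicate 2 (adjusted p = 0.0679) or 24 h replicate 3 (adjusted p = 0.0513).

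Of the 23 tested cornified envelope and late differentiation genes, 7 rose and none fell, with a median of 0.98 (5 rose without 24 h replicate 1, 24 h replicate 3 or 72 h replicate 1). Tgm3, a transglutaminase that cross-links the envelope, had 61, 72.8 and 58.9 CPM at 24 h and 235, 202 and 238 CPM at 72 h. Tgm3 rose by 1.81 ± 0.19 on the log2 scale (adjusted p = 3.02e-07). Lce1a1, a late envelope gene of a family with similar copies, had 1.8, 2.97 and 0.937 CPM at 24 h and 8.67, 6.18 and 5.68 CPM at 72 h. Lce1a1 rose by 1.85 ± 0.43 on the log2 scale (adjusted p = 0.00493). Its relative Lce1f, which stands outside this list, went the other way, from a mean of 21.6 CPM at 24 h to 7.59 CPM at 72 h. Lce1f fell by 1.51 ± 0.26 on the log2 scale (adjusted p = 0.000291) and was chosen after its values were seen. Sprr3, named above, had 3.65, 5.89 and 3.28 CPM at 24 h and 23, 10.6 and 13 CPM at 72 h. Sprr3 rose by 1.86 ± 0.40 on the log2 scale (adjusted p = 0.00224). Cnfn, another envelope protein gene, had 14.6, 17.6 and 11.3 CPM at 24 h and 57.8, 48.9 and 45.2 CPM at 72 h. Cnfn rose by 1.80 ± 0.50 on the log2 scale (adjusted p = 0.0201), a call lost without 72 h replicate 1 (adjusted p = 0.0659), 24 h replicate 1 (adjusted p = 0.071) or 24 h replicate 3 (adjusted p = 0.0851). Ivl, the envelope precursor involucrin that heads the list, had 37.7, 24.6 and 25.7 CPM at 24 h and 30.1, 26 and 27 CPM at 72 h, overlapping groups. Ivl differed by -0.08 ± 0.27 on the log2 scale (adjusted p = 0.909). The involucrin value turned to 0.14 without 24 h replicate 1.

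Several factors that drive differentiation rose as well. Of 20 keratinocyte fate transcription factors 5 rose and none fell, with a median of 0.40, and the count was 5 under every single removal. Grhl1, a grainyhead factor that activates desmosomal cadherin genes, had 19.7, 20.3 and 23.2 CPM at 24 h and 61.7, 60.9 and 64.6 CPM at 72 h. Grhl1 rose by 1.57 ± 0.21 on the log2 scale (adjusted p = 7.54e-06). Cebpa had 6.29, 8.75 and 8.33 CPM at 24 h and 18.5, 20.5 and 23.5 CPM at 72 h. Cebpa rose by 1.42 ± 0.20 on the log2 scale (adjusted p = 2.81e-05). Zfp750, a target of p63, had 37.9, 39.5 and 32.7 CPM at 24 h and 55.9, 62.8 and 66.8 CPM at 72 h. Zfp750 rose by 0.75 ± 0.15 on the log2 scale (adjusted p = 0.000935). Trp63 itself, the master factor of the basal layer, had 139, 111 and 125 CPM at 24 h and 128, 154 and 135 CPM at 72 h, with overlapping groups. Trp63 differed by 0.16 ± 0.27 on the log2 scale (adjusted p = 0.806).

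**Figure D3:**
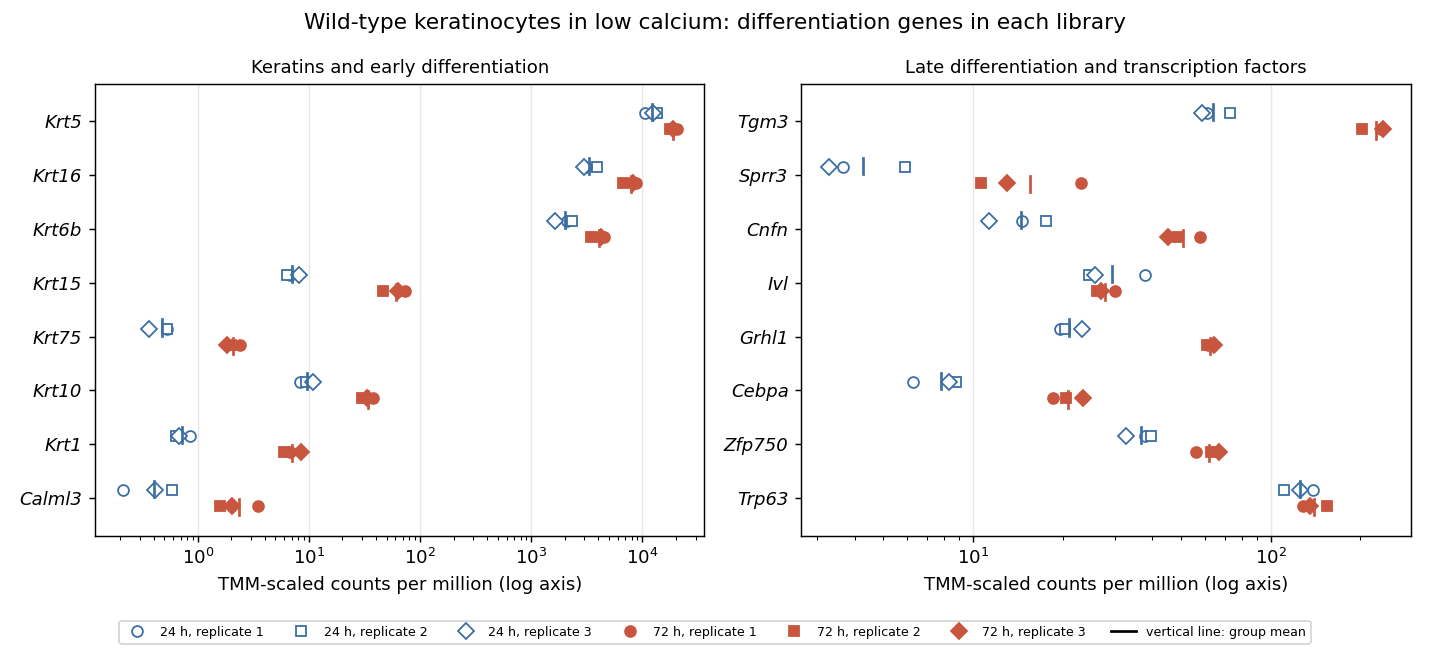
Levels of keratin and early differentiation genes (left) and of late differentiation genes and fate transcription factors (right) in WT keratinocytes in LCM, in TMM-scaled CPM on a log axis; open blue symbols are the 24 h libraries, filled red symbols the 72 h libraries, and vertical lines the group means. All genes shown are higher in every 72 h library except Ivl and Trp63, whose groups overlap (Ivl 24.6 to 37.7 at 24 h and 26 to 30.1 at 72 h).

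Some desmosome genes rose. Of 15 tested, 4 rose (1 without TMM factors) and none fell, with a median of 0.51, and 2 to 4 were called when single libraries were left out (2 without 24 h replicate 2 or 3). Pkp1, which recruits desmosomal plaque proteins, had 1232, 1423 and 1296 CPM at 24 h and 2095, 2282 and 2041 CPM at 72 h. Pkp1 rose by 0.70 ± 0.12 on the log2 scale (adjusted p = 0.000143). Perp, a tetraspan desmosomal protein, had 1666, 1704 and 1704 CPM at 24 h and 2966, 3067 and 3616 CPM at 72 h. Perp rose by 0.93 ± 0.15 on the log2 scale (adjusted p = 0.000157). Dsp, the desmoplakin gene, had 1478, 1226 and 1183 CPM at 24 h and 1732, 2105 and 1694 CPM at 72 h, separate groups that did not pass the test. Dsp differed by 0.51 ± 0.31 on the log2 scale (adjusted p = 0.353). Dsg1b had 16, 8.75 and 9.21 CPM at 24 h and 22.4, 37.9 and 23.8 CPM at 72 h. Dsg1b rose by 1.31 ± 0.35 on the log2 scale (adjusted p = 0.0155) and lost its call without 72 h replicate 2 (adjusted p = 0.0957), 24 h replicate 2 (adjusted p = 0.08) or 24 h replicate 3 (adjusted p = 0.075). Dsg1a and Dsg1b are close paralogs, and reads could be split between them.

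The adherens junction list was near the background, with 1 of 15 called, which was Pkp4. Cdh1, the E-cadherin gene, had 88.6, 97.2 and 106 CPM at 24 h and 68.1, 86.2 and 78.4 CPM at 72 h. Cdh1 differed by -0.33 ± 0.18 on the log2 scale (adjusted p = 0.278). Among tight and gap junction genes 1 of 19 rose and 2 fell. Gja1, the connexin of basal cells, had 81.7, 76.1 and 83.1 CPM at 24 h and 48, 51.6 and 49.6 CPM at 72 h. Gja1 fell by 0.69 ± 0.12 on the log2 scale (adjusted p = 0.00022). Tjp3, the ZO-3 gene, had 0.106, 0.117 and 0 CPM at 24 h and 0.602, 0.396 and 0.682 CPM at 72 h, where no 24 h library held more than 3 counts, so that no fold is given (adjusted p = 0.0101). The Tjp3 rise was lost without 24 h replicate 3 (adjusted p = 0.059). Tjp1, the ZO-1 gene, had 68.7, 48.5 and 58.6 CPM at 24 h and 43.5, 64.1 and 42.5 CPM at 72 h, with overlapping groups. Tjp1 differed by -0.23 ± 0.26 on the log2 scale (adjusted p = 0.673).

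Among genes that attach the cells to the substrate the calls were mostly falls. Of 16 tested integrin, hemidesmosome and laminin-332 genes 6 fell (5 to 7 under single removals) and 1 rose, with a median of -0.48. The integrin gene Itgb1 had 247, 183 and 218 CPM at 24 h and 84.5, 109 and 95.9 CPM at 72 h. Itgb1 fell by 1.16 ± 0.24 on the log2 scale (adjusted p = 0.00158). Itga2, the alpha chain of the collagen receptor, had 4.23, 3.44 and 2.34 CPM at 24 h and 0.251, 0.396 and 0.273 CPM at 72 h. Itga2 fell by 3.40 ± 0.56 on the log2 scale (adjusted p = 0.000174). The laminin-332 chain gene Lama3 was lower in every 72 h library. Lama3 had 186, 190.4 and 191 CPM at 24 h and 79.6, 101 and 76.8 CPM at 72 h. Lama3 fell by 1.14 ± 0.20 on the log2 scale (adjusted p = 0.000224). Itgb5 was the member that rose. Itgb5 rose by 0.49 ± 0.12 on the log2 scale (adjusted p = 0.00824), and its call was lost without 24 h replicate 1 (adjusted p = 0.0726). Itga6, which heads the list, had 281, 237 and 276 CPM at 24 h and 178, 249.4 and 195 CPM at 72 h. Itga6 differed by -0.35 ± 0.30 on the log2 scale (adjusted p = 0.556).

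The wider matrix and cytoskeleton lists held fewer calls. Of 17 collagens 3 fell and none rose, but 0 were called without 72 h replicate 3 and 1 without 24 h replicate 1. Col8a1 had 21.3, 17.1 and 23.8 CPM at 24 h and 9.62, 11.3 and 9.09 CPM at 72 h. Col8a1 fell by 1.05 ± 0.27 on the log2 scale (adjusted p = 0.0118), a call lost without 72 h replicate 1 (adjusted p = 0.0593), 72 h replicate 3 (adjusted p = 0.0608) or 24 h replicate 3 (adjusted p = 0.054). Among 15 proteases and inhibitors 3 fell and 1 rose, and Plaur, given above, was among the falls. The inhibitor gene Timp1 had 41.4, 65 and 55.9 CPM at 24 h and 25, 24.2 and 22.1 CPM at 72 h. Timp1 fell by 1.19 ± 0.31 on the log2 scale (adjusted p = 0.0118) and lost its call without 72 h replicate 3 (adjusted p = 0.0564) or 24 h replicate 2 (adjusted p = 0.0583). Mmp2, the member that rose, had 1.11, 1.11 and 0.885 CPM at 24 h and 1.75, 2.34 and 2.05 CPM at 72 h. Mmp2 rose by 0.98 ± 0.31 on the log2 scale (adjusted p = 0.0371), and every single removal ended the call (adjusted p = 0.0511 to 0.133).

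Of 20 actin, tropomyosin and SRF target genes 4 fell and 1 rose. Acta2, smooth muscle actin, had 21.7, 27.2 and 27 CPM at 24 h and 8.47, 8.2 and 6.23 CPM at 72 h. Acta2 fell by 1.73 ± 0.35 on the log2 scale (adjusted p = 0.00139). The actin cross-linker gene Actn1 had 362, 409 and 358 CPM at 24 h and 189.99, 233 and 186 CPM at 72 h. Actn1 fell by 0.89 ± 0.18 on the log2 scale (adjusted p = 0.00144), and the filamin gene Flna had 551, 683 and 599 CPM at 24 h and 349.5, 428 and 383 CPM at 72 h. Flna fell by 0.66 ± 0.13 on the log2 scale (adjusted p = 0.00138). Tpm1, a tropomyosin of stress fibers, had 350.1, 367 and 378 CPM at 24 h and 261, 215 and 233 CPM at 72 h. Tpm1 fell by 0.63 ± 0.15 on the log2 scale (adjusted p = 0.00623). Actb had 1296, 1918 and 1905 CPM at 24 h and 1638, 1654 and 1560 CPM at 72 h. Actb differed by -0.08 ± 0.60 on the log2 scale (adjusted p = 0.968), and for Actg1, the member that rose, each single removal ended the call (adjusted p = 0.0639 to 0.23).

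Of 18 YAP and TAZ target genes 5 fell and none rose, and 4 to 6 fell under single removals. Ccn2 (CTGF), the most used readout of YAP, had 121, 129.9 and 121 CPM at 24 h and 27.2, 34 and 29.7 CPM at 72 h. Ccn2 fell by 2.03 ± 0.35 on the log2 scale (adjusted p = 0.000245). Ccn1 (CYR61) had 15.3, 18.1 and 17.2 CPM at 24 h and 7.07, 6.97 and 8.54 CPM at 72 h. Ccn1 fell by 1.16 ± 0.27 on the log2 scale (adjusted p = 0.00406). F3, the tissue factor gene, had 16.8, 18 and 21.1 CPM at 24 h and 8.67, 10.2 and 9.82 CPM at 72 h. F3 fell by 0.96 ± 0.19 on the log2 scale (adjusted p = 0.00129). Tead1, which encodes a DNA-binding partner of YAP, had 49.4, 36.6 and 45.1 CPM at 24 h and 19.6, 27.7 and 19 CPM at 72 h. Tead1 fell by 0.98 ± 0.32 on the log2 scale (adjusted p = 0.0441), a call lost without 72 h replicate 1 (adjusted p = 0.163), 72 h replicate 3 (adjusted p = 0.166), 24 h replicate 1 (adjusted p = 0.152) or 24 h replicate 3 (adjusted p = 0.0964). The median of the list was -0.22.

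EGF receptor ligands and the feedback genes of the pathway formed the list with the lowest median. Of 18 tested members 9 fell (8 to 10 under single removals, 8 without 24 h replicate 1 or 72 h replicate 1) and 1 rose. Ereg, the ligand epiregulin, had 6.02, 3.56 and 5.2 CPM at 24 h and 0.952, 1.19 and 1.5 CPM at 72 h. Ereg fell by 2.01 ± 0.42 on the log2 scale (adjusted p = 0.0019). Among tested protein-coding genes, the ligand genes Areg and Epgn are the neighbors of Ereg on chromosome 5 (the 3 genes span 91175323 to 91296291, GRCm39). Areg and Epgn changed by -1.53 and -0.96, a run looked for after the values had been seen. Dusp6, a phosphatase that switches off ERK, had 8.46, 9.97 and 6.77 CPM at 24 h and 2.81, 2.57 and 2.45 CPM at 72 h. Dusp6 fell by 1.68 ± 0.22 on the log2 scale (adjusted p = 7.62e-06). Etv4, an ETS factor induced by ERK, had 22.9, 29.9 and 23.5 CPM at 24 h and 6.52, 8.55 and 9.64 CPM at 72 h. Etv4 fell by 1.62 ± 0.28 on the log2 scale (adjusted p = 0.000282), and its relative Etv5 had 2.17, 2.45 and 2.55 CPM at 24 h and 0.501, 0.356 and 0.909 CPM at 72 h. Etv5 fell by 2.02 ± 0.27 on the log2 scale (adjusted p = 1.09e-05). In all 4 genes each 72 h library was below each 24 h library. Of the receptors, Erbb3 had 9.25, 8.63 and 11.4 CPM at 24 h and 13.5, 19.8 and 16.3 CPM at 72 h. Erbb3 rose by 0.76 ± 0.16 on the log2 scale (adjusted p = 0.00238). The main receptor gene Egfr had 19.7, 19.6 and 21.2 CPM at 24 h and 12.1, 18.1 and 13.9 CPM at 72 h, with separate groups. Egfr differed by -0.46 ± 0.18 on the log2 scale (adjusted p = 0.122).

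The immediate-early list did not move as a block, with 2 of 20 up and 3 down and a median of 0.17 that turned to -0.04 without TMM factors. Fosl1, an AP-1 subunit induced by ERK, had 16.2, 20.2 and 15.7 CPM at 24 h and 5.26, 6.69 and 7.18 CPM at 72 h. Fosl1 fell by 1.44 ± 0.29 on the log2 scale (adjusted p = 0.00113). Fos had 9.3, 9.74 and 9.11 CPM at 24 h and 9.42, 10.3 and 12 CPM at 72 h, with overlapping groups. Fos differed by 0.17 ± 0.27 on the log2 scale (adjusted p = 0.776). The MAP kinase phosphatase gene Dusp1 had 4.7, 5.36 and 5.57 CPM at 24 h and 11.1, 11.5 and 10.9 CPM at 72 h. Dusp1 rose by 1.1 ± 0.18 on the log2 scale (adjusted p = 0.000125). Junb, Nr4a1 and Dusp5 were called (0.51, -0.96 and -0.83), but their calls were not stable. Junb lost it in every single removal but that of 24 h replicate 3 (adjusted p = 0.0661 to 0.15), Dusp5 likewise (adjusted p = 0.0822 to 0.144), and Nr4a1 without 72 h replicate 3 (adjusted p = 0.0891) or 24 h replicate 1 (adjusted p = 0.0621).

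TGF-beta and BMP genes moved in both directions, with 2 of 18 up and 4 down. The matrix glycoprotein gene Thbs1, which activates latent TGF-beta, had 49.995, 55.6 and 45.6 CPM at 24 h and 10.9, 13.3 and 8.77 CPM at 72 h. Thbs1 fell by 2.19 ± 0.44 on the log2 scale (adjusted p = 0.0012). Pmepa1, a TGF-beta target that restrains the pathway, had 43.7, 50.6 and 49.5 CPM at 24 h and 20.9, 24 and 21.6 CPM at 72 h. Pmepa1 fell by 1.11 ± 0.18 on the log2 scale (adjusted p = 0.000125). Tgfbi, another matrix gene named for its induction by TGF-beta, went the other way: it had 75.5, 89.6 and 97.4 CPM at 24 h and 171, 148 and 154 CPM at 72 h. Tgfbi rose by 0.85 ± 0.13 on the log2 scale (adjusted p = 6.09e-05). The falls also include Fst, described above, and Id1 (-0.68), whose call every single removal ended (adjusted p = 0.0552 to 0.161). In the Wnt list 1 of 22 rose and 2 fell, and all 3 had separate groups. The ligand gene Wnt6 had 2.11, 2.57 and 2.81 CPM at 24 h and 9.27, 9.58 and 10.4 CPM at 72 h. Wnt6 rose by 1.96 ± 0.40 on the log2 scale (adjusted p = 0.00145). The ligand gene Wnt7a had 31, 37.7 and 40.4 CPM at 24 h and 14.5, 13.7 and 11.8 CPM at 72 h. Wnt7a fell by 1.45 ± 0.17 on the log2 scale (adjusted p = 1.01e-06). Dkk3, a secreted Dickkopf-family gene, had 23.9, 29.4 and 28.4 CPM at 24 h and 9.52, 10.3 and 9.45 CPM at 72 h. Dkk3 fell by 1.48 ± 0.22 on the log2 scale (adjusted p = 3.58e-05). In the Notch list 2 of 15 fell, the glycosyltransferase gene Lfng (log2 fold change -0.62 ± 0.15 SE, adjusted p = 0.00746) and the ligand gene Jag1 (log2 fold change -0.90 ± 0.28 SE, adjusted p = 0.0405). Every single removal ended the Jag1 call (adjusted p = 0.0534 to 0.185).

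Cytokine and chemokine genes split into a group that fell and a smaller group that rose. Of 22 tested 6 fell and 3 rose, and under single removals 5 or more fell and 3 rose. Cxcl5, a neutrophil attractant, had 321, 378 and 357 CPM at 24 h and 70.1, 62.2 and 72.8 CPM at 72 h. Cxcl5 fell by 2.36 ± 0.27 on the log2 scale (adjusted p = 9.98e-07). Cxcl1, which binds the same receptor, had 28.4, 58.5 and 39.9 CPM at 24 h and 7.72, 5.54 and 8.64 CPM at 72 h. Cxcl1 fell by 2.53 ± 0.27 on the log2 scale (adjusted p = 2.77e-07). Cxcl3 and Ppbp (CXCL7) stand outside the list but are leading falls, and both attract neutrophils too. Cxcl3 had 19.1, 28.6 and 24.6 CPM at 24 h and 3.71, 3.64 and 3.86 CPM at 72 h. Cxcl3 fell by 2.69 ± 0.33 on the log2 scale (adjusted p = 2.61e-06). Ppbp had 162, 186 and 159 CPM at 24 h and 27.3, 33.6 and 30.4 CPM at 72 h. Ppbp fell by 2.47 ± 0.25 on the log2 scale (adjusted p = 1.62e-07). These 4 genes are all leading falls, so that every 72 h library was below every 24 h library follows from the rule that picked them. Among tested protein-coding genes they are neighbors on chromosome 5 with Rassf6 (90748013 to 91040974, GRCm39), and untested genes may lie between them. All 5 genes of that run fell, by 1.08 to 2.69 on the log2 scale. The run was looked for after the values had been seen.

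Csf3, the granulocyte growth factor G-CSF, had 3.01, 3.5 and 3.9 CPM at 24 h and 0.702, 0.633 and 0.455 CPM at 72 h. Csf3 fell by 2.53 ± 0.31 on the log2 scale (adjusted p = 2.61e-06). Ccl2 was detected with 1, 13 and 2 counts at 24 h and 1, 0 and 1 at 72 h, and its fall, for which no fold is given at such counts (adjusted p = 0.0104), was lost without 72 h replicate 2 (adjusted p = 0.0609) or 24 h replicate 2 (adjusted p = 0.592). The members that rose belong to the interleukin-1 family. Il18 had 6.76, 9.33 and 8.17 CPM at 24 h and 30.1, 25.8 and 32.8 CPM at 72 h. Il18 rose by 1.87 ± 0.35 on the log2 scale (adjusted p = 0.000618). Il33, an alarmin of the nucleus, had 20.5, 17.7 and 15.6 CPM at 24 h and 43.4, 53.9 and 64.5 CPM at 72 h. Il33 rose by 1.59 ± 0.23 on the log2 scale (adjusted p = 2.62e-05). Il1rn, the receptor antagonist, had 15.4, 16 and 13 CPM at 24 h and 33.4, 29 and 34.8 CPM at 72 h. Il1rn rose by 1.13 ± 0.17 on the log2 scale (adjusted p = 4.13e-05). Il1a, the agonist of the same receptor, had 12.2, 9.39 and 11.1 CPM at 24 h and 5.46, 6.41 and 8.82 CPM at 72 h without passing the test. Il1a differed by -0.66 ± 0.24 on the log2 scale (adjusted p = 0.0804). No interferon-stimulated gene of 11 tested was called by edgeR, 1 had an unadjusted p below 0.05, DESeq2 called 0, and Isg15 did not pass the filter on low counts. Of 11 antigen presentation genes 1 rose, the class II gene H2-Eb1, which had 0.37, 0.583 and 1.04 CPM at 24 h and 2.41, 2.57 and 2.41 CPM at 72 h. H2-Eb1 rose by 1.88 ± 0.38 on the log2 scale (adjusted p = 0.0014).

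**Figure D4:**
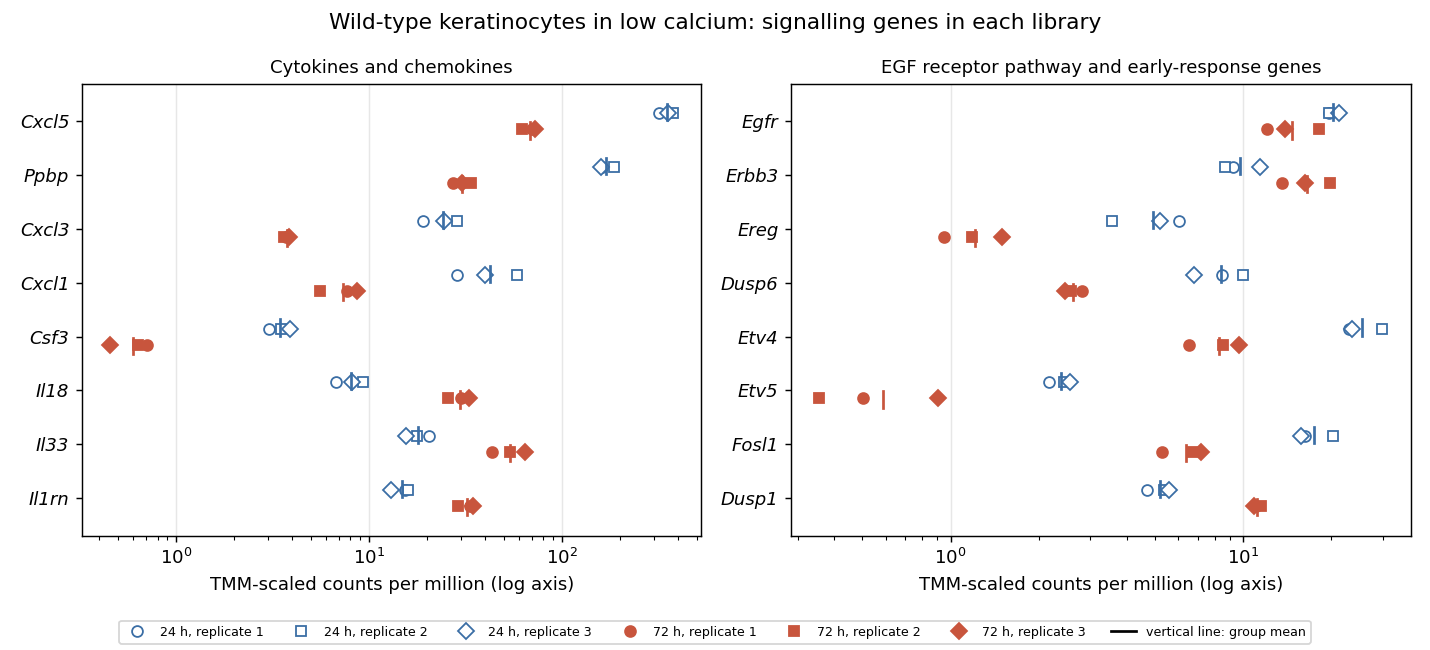
Levels of cytokine and chemokine genes (left) and of EGF receptor pathway and early-response genes (right) in WT keratinocytes in LCM, in TMM-scaled CPM on a log axis; open blue symbols are the 24 h libraries, filled red symbols the 72 h libraries, and vertical lines the group means. The 4 CXC chemokines lie lower in every 72 h library (Cxcl5 62.2 to 72.8 against 321 to 378), and Il18, Il33 and Il1rn lie higher.

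A promoter was examined for Cxcl1, chosen after its values were seen. RefSeq gives the window from 250 bases before to 50 after the start (GRCm38.p6), and the site read by NF-kB factors (GGG, 2 free bases, then TTTCC) was searched on both strands. Of the 6 cytokine genes that fell, Cxcl1 was the only member with an entry, and the window held the letters, as did 2.03% of the windows of 9892 tested genes. Among the 3 cytokine genes that rose, all with an entry, 1 window held it. Its copy on the gene strand is shown, with the match in capitals, at chr5:90891154-90891203 on the plus strand.
Cxcl1: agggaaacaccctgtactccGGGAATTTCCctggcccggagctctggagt
A match describes the letters only.

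Genes of DNA replication made up the list with the most falls. Of 25 tested 14 fell and none rose, with a median of -0.57, and 9 or more fell under single removals (9 without 72 h replicate 1, 14 without 24 h replicate 1). Mcm3 and Mcm4 encode subunits of the replicative helicase, and both had separate groups. Mcm3 had 141, 176 and 171 CPM at 24 h and 95.3, 100.01 and 96.2 CPM at 72 h. Mcm3 fell by 0.74 ± 0.13 on the log2 scale (adjusted p = 0.000204). Mcm4 had 107, 95.9 and 107 CPM at 24 h and 55.6, 67.5 and 62 CPM at 72 h. Mcm4 fell by 0.74 ± 0.15 on the log2 scale (adjusted p = 0.00178). Cdc6, which loads that helicase at origins, had the deepest fall of the list and had 20.9, 24 and 21.2 CPM at 24 h and 7.47, 9.62 and 11.3 CPM at 72 h. Cdc6 fell by 1.22 ± 0.20 on the log2 scale (adjusted p = 0.000174). Pcna had 425, 492 and 485 CPM at 24 h and 359, 326 and 412 CPM at 72 h, with separate groups but without passing the test. Pcna differed by -0.35 ± 0.13 on the log2 scale (adjusted p = 0.0851).

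Mitotic genes fell less uniformly by the test. All 25 changes were negative, 8 were called, with a median of -0.52, and 4 were called without 72 h replicate 1 or 24 h replicate 3. The mitotic kinase gene Aurka had 82.7, 100.1 and 93.5 CPM at 24 h and 60.3, 62.3 and 65 CPM at 72 h. Aurka fell by 0.56 ± 0.11 on the log2 scale (adjusted p = 0.000849). Kif20a, a kinesin of cytokinesis, had 189, 198 and 201 CPM at 24 h and 129, 141 and 133 CPM at 72 h. Kif20a fell by 0.55 ± 0.13 on the log2 scale (adjusted p = 0.00464). Ccna2, the cyclin A2 gene, changed by -0.59 and lost its call without 72 h replicate 1 (adjusted p = 0.0953), 24 h replicate 1 (adjusted p = 0.0532) or 24 h replicate 3 (adjusted p = 0.059). Tpx2, a spindle assembly factor, changed by -0.60 and lost its call without 72 h replicate 1 (adjusted p = 0.112), 72 h replicate 3 (adjusted p = 0.0864), 24 h replicate 1 (adjusted p = 0.0719) or 24 h replicate 3 (adjusted p = 0.0853). Mki67, the proliferation marker that heads the list, had 50.8, 23.8 and 30.2 CPM at 24 h and 27.5, 34.5 and 19.6 CPM at 72 h, with overlapping groups. Mki67 differed by -0.36 ± 0.38 on the log2 scale (adjusted p = 0.644), and its value was 0.012 without 24 h replicate 1.

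The cell cycle gene homology region, TTTGAA, through which a repressor complex silences mitotic genes outside the cell cycle, was searched on both strands of the same promoter windows. Of the 8 mitotic genes that fell, 4 had an entry, namely Aurka, Ccnf, Cdc20 and Cdk1, and all 4 held it, as did 14.7% of the 9892 windows of tested genes. These genes changed by -0.56, -0.52, -0.39 and -0.52 on the log2 scale. The copies nearest the start are shown 5′ to 3′ on the gene strand (the minus strand for all 4), with the match in capitals, to show where it sits, from Aurka at chr2:172370521-172370558, Ccnf at chr17:24251398-24251443, Cdc20 at chr4:118437336-118437381 and Cdk1 at chr10:69352902-69352947 (GRCm38.p6).
Aurka: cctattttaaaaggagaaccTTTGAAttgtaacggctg
Ccnf: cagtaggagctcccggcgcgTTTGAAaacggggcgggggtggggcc
Cdc20: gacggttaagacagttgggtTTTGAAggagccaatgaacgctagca
Cdk1: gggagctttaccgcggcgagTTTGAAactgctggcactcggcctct
In Ccnf, Cdc20 and Cdk1 the match began 14, 18 and 15 bases before the start, and in Aurka at base 33.

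Replication-dependent histones, read from a poly(A) library that captures few of them, gave 2 rises of 23 and no fall (H2bc4, 0.73, and H1f3, 1.40). The H2bc4 call was lost without 72 h replicate 1 (adjusted p = 0.101), 72 h replicate 3 (adjusted p = 0.0545) or 24 h replicate 1 (adjusted p = 0.0888), and the H1f3 call without 72 h replicate 1 (adjusted p = 0.0913), 24 h replicate 1 (adjusted p = 0.15) or 24 h replicate 3 (adjusted p = 0.107). Among the cyclin-dependent kinase inhibitors and p53 targets 2 of 24 rose and 1 fell. Sesn1, a stress-induced inhibitor of mTORC1, had 32.2, 29.9 and 34.7 CPM at 24 h and 60.7, 80.4 and 81.3 CPM at 72 h. Sesn1 rose by 1.2 ± 0.29 on the log2 scale (adjusted p = 0.00711). The death receptor gene Tnfrsf10b had 17.3, 19.4 and 21.5 CPM at 24 h and 10.9, 10.1 and 9.64 CPM at 72 h. Tnfrsf10b fell by 0.93 ± 0.17 on the log2 scale (adjusted p = 0.000648). Cdkn1a, the p21 gene, had 245, 294 and 268 CPM at 24 h and 394, 353 and 416 CPM at 72 h. Cdkn1a differed by 0.53 ± 0.27 on the log2 scale (adjusted p = 0.237), with separate groups.

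Ribosomal protein genes had small positive changes. All 39 changes were positive, from 0.13 to 0.74, with a median of 0.54, and 7 rose. The count fell to 0 without 24 h replicate 1 or 72 h replicate 1 and reached 9 under another single removal. Rps6 had 2006, 2777 and 2889 CPM at 24 h and 5056, 3281 and 4202 CPM at 72 h. Rps6 rose by 0.71 ± 0.21 on the log2 scale (adjusted p = 0.0264), a call lost without 72 h replicate 1 (adjusted p = 0.162), 72 h replicate 3 (adjusted p = 0.0724) or 24 h replicate 1 (adjusted p = 0.168). Genes of ribosome biogenesis had 24 of 26 changes below 0 and 1 call, with a median of -0.23. All 24 nuclear-encoded respiratory chain genes were positive with a median of 0.32, 3 were called, and 0 without 24 h replicate 1, 72 h replicate 1 or 72 h replicate 3. Without TMM factors the medians were 0.33 for the ribosomal proteins and 0.11 for the respiratory chain.

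In the glycolysis and hypoxia list 6 of 28 rose and 1 fell (5 or 6 rose under single removals), with a median of 0.28. Slc2a1, the glucose transporter GLUT1, had 68, 81.5 and 81.2 CPM at 24 h and 117, 118 and 115 CPM at 72 h. Slc2a1 rose by 0.60 ± 0.14 on the log2 scale (adjusted p = 0.00406). Egln3, an oxygen sensor that HIF induces, had 8.46, 9.68 and 8.59 CPM at 24 h and 21.4, 19 and 19.5 CPM at 72 h. Egln3 rose by 1.16 ± 0.19 on the log2 scale (adjusted p = 0.000139). Bnip3, a mitophagy receptor, had 4.91, 4.2 and 5.93 CPM at 24 h and 14, 12.6 and 11.3 CPM at 72 h. Bnip3 rose by 1.33 ± 0.25 on the log2 scale (adjusted p = 0.000617). Ndrg1 had 46.2, 55.9 and 50.4 CPM at 24 h and 92.7, 88.4 and 104 CPM at 72 h. Ndrg1 rose by 0.90 ± 0.17 on the log2 scale (adjusted p = 0.000554). Pfkfb3, which raises glycolytic flux, was the member that fell and had 13.6, 13.6 and 12.7 CPM at 24 h and 6.62, 8.91 and 5.91 CPM at 72 h. Pfkfb3 fell by 0.89 ± 0.17 on the log2 scale (adjusted p = 0.000744).

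Of 25 NRF2 targets 7 rose and 2 fell, with a median of 0.34. Hmox1, heme oxygenase, had 40.3, 57.1 and 40.9 CPM at 24 h and 105, 77 and 97.9 CPM at 72 h. Hmox1 rose by 1.02 ± 0.20 on the log2 scale (adjusted p = 0.000984). The glutathione transferase genes Gstm1 and Gsta1, which belong to families with similar copies, also rose. Gstm1 had 5.07, 2.33 and 1.77 CPM at 24 h and 10.8, 9.86 and 9.73 CPM at 72 h. Gstm1 rose by 1.72 ± 0.34 on the log2 scale (adjusted p = 0.00103). Gsta1 had 52.6, 67.5 and 55.2 CPM at 24 h and 159, 92.3 and 132 CPM at 72 h. Gsta1 rose by 1.13 ± 0.25 on the log2 scale (adjusted p = 0.00264). Nqo1 and Txnrd1, textbook NRF2 targets, went the other way, with changes of -0.64 and -1.06. The Nqo1 call was lost in every single removal but that of 24 h replicate 1 (adjusted p = 0.0694 to 0.138), and the Txnrd1 call without 72 h replicate 1 (adjusted p = 0.0744) or 72 h replicate 3 (adjusted p = 0.053). The antioxidant response element core, TGANNNNGC, was in 3 of the 5 promoter windows of the genes that rose, a share to be read beside 48.1% of the windows of tested genes.

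Lysosome and autophagy genes had 6 of 26 up and 1 down, with a median of 0.32. The proton pump subunit gene Atp6v0d1 had 66.1, 84.8 and 85.9 CPM at 24 h and 145, 132 and 148 CPM at 72 h. Atp6v0d1 rose by 0.84 ± 0.12 on the log2 scale (adjusted p = 3.05e-05). Of the ER chaperone genes 4 of 20 fell and none rose, with a median of -0.31, but none was called without 24 h replicate 3 or 72 h replicate 1, and 1 without 24 h replicate 1. Hspa5 (BiP), the main chaperone of the ER, had 265, 234 and 286 CPM at 24 h and 168, 166 and 168 CPM at 72 h. Hspa5 fell by 0.64 ± 0.20 on the log2 scale (adjusted p = 0.0325), a call lost in every single removal but that of 24 h replicate 2 (adjusted p = 0.0838 to 0.114). Among heat shock genes 3 of 18 rose, and none was called without 24 h replicate 1. Hspb1 (HSP27) had 1127, 1681 and 2142 CPM at 24 h and 4805, 4610 and 4479 CPM at 72 h. Hspb1 rose by 1.49 ± 0.37 on the log2 scale (adjusted p = 0.00831), and it had adjusted p = 0.0666 without that library.

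Lipid genes were mixed. Of 25 cholesterol synthesis genes 2 rose and 3 fell, and of 23 fatty acid synthesis and storage genes 1 rose and 5 fell. Plin2, the coat protein of lipid droplets, had 60.8, 90.7 and 69.5 CPM at 24 h and 32.9, 28.4 and 35.3 CPM at 72 h. Plin2 fell by 1.19 ± 0.14 on the log2 scale (adjusted p = 1.25e-06). Mvd, of the mevalonate pathway, had 13.2, 15.7 and 12.9 CPM at 24 h and 25.3, 21.3 and 22.5 CPM at 72 h. Mvd rose by 0.72 ± 0.16 on the log2 scale (adjusted p = 0.00238). Fabp5, the epidermal fatty acid binding protein, had 524, 819 and 687 CPM at 24 h and 2524, 1345 and 1748 CPM at 72 h. Fabp5 rose by 1.47 ± 0.37 on the log2 scale (adjusted p = 0.00883), and lost its call without 72 h replicate 1 (adjusted p = 0.0698) or 24 h replicate 1 (adjusted p = 0.0609). The fall of Scd1 rested on 24 h replicate 1, since it had 8.09, 2.1 and 0.364 CPM at 24 h and 0.201, 0.277 and 0.49997 CPM at 72 h. Scd1 fell by 3.40 ± 0.73 on the log2 scale (adjusted p = 0.00238), against adjusted p = 0.127 without that library. Of 25 amino acid supply genes 3 fell, among them the glutamine transporter gene Slc1a5, which had 13.9, 19.3 and 18.9 CPM at 24 h and 8.27, 9.62 and 9.54 CPM at 72 h. Slc1a5 fell by 0.92 ± 0.19 on the log2 scale (adjusted p = 0.00197). Of 12 S100 genes 1 rose, S100a16 by 0.59, a call lost without 72 h replicate 1 (adjusted p = 0.136), 72 h replicate 3 (adjusted p = 0.125) or 24 h replicate 1 (adjusted p = 0.206).

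Some of the called genes were neighbors, found by looking for runs after the calls were known. Neighbors are meant among the tested protein-coding genes, so untested genes may lie between the members of a run. On chromosome 15 the 6 tested keratin genes from Krt6b to Krt4 rose (101584458 to 101833170), and on chromosome 7 the 6 tested kallikrein genes from Klk14 to Klk9 (43339842 to 43446181). On chromosome 3 Lce3d, Lce3e, Lce3f and Crct1 rose (92864697 to 92923001). On chromosome 19 Fads3, Fads2, Fads1 and Fen1 fell (10018253 to 10182097), and on chromosome 13 Prl8a6, Prl8a9 and Prl8a1 (27616664 to 27766154, all GRCm39). The Fads2 call was lost in every single removal (adjusted p = 0.0848 to 0.144). Genes within such families can share reads, so their members are not independent.

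Culture time was also studied in the other cells and in HCM, and those effects give the frame for the values above. With the same test 3954 genes (26.2%) changed with time in PKP4-KO cells in LCM, 1880 (12.4%) upwards and 2074 (13.7%) downwards. In Rescue cells in LCM 1482 (9.81%) did, 1034 (6.84%) upwards and 448 (2.96%) downwards. In WT cells in HCM 2698 (17.9%) did, 1384 (9.16%) upwards and 1314 (8.69%) downwards. These comparisons share no library. Of the 800 genes that rose in WT cells in LCM, 550 (68.8%) also rose in PKP4-KO cells, 355 (44.4%) in Rescue cells and 363 (45.4%) in HCM, which are 29.3%, 34.3% and 26.2% of the rises there. Of the 705 that fell, 399 (56.6%), 129 (18.3%) and 250 (35.5%) also fell, or 19.2%, 28.8% and 19.0% of the falls there. The same direction was called in all 4 comparisons for 169 rises and 59 falls. These counts rest on the calls of each comparison and do not test the difference.

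The difference itself was tested as an interaction. The effect of time differed between WT and PKP4-KO cells in LCM for 795 of 15114 genes (5.26%), with the WT value higher in 276 (1.83%) and lower in 519 (3.43%). It differed between WT and Rescue cells for 591 (3.91%), higher in 198 (1.31%) and lower in 393 (2.6%). In WT cells it differed between LCM and HCM for 657 (4.35%), higher in LCM in 320 (2.12%) and lower in 337 (2.23%). Of the called genes, 25 that rose and 20 that fell in WT LCM differed from all 3 others. These 2 counts were not repeated without 24 h LCM replicate 1. Some of the falls had uneven or low levels at 24 h, such as Aldoc (mean 6.04 ± 8.03 CPM, SD) and Ephb1 (mean 0.503 ± 0.444 CPM, SD). Libraries of the other groups also held transcripts of other organs, with the highest neuron and glia sum, 91.7, in a Rescue 72 h HCM library and the highest liver sum, 19.1, in a WT 24 h HCM library. Without 24 h LCM replicate 1 the 3 interaction totals were 576, 408 and 511.

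The ERK-induced genes Dusp6, Etv4 and Fosl1 were among those that differed from every other culture. The fall of Dusp6 by 1.68 stood against changes of 0.66 in PKP4-KO cells, -0.35 in Rescue cells and 1.01 in HCM (adjusted p of the difference 5.66e-06, 0.00841 and 2.3e-06). Etv4 fell by 1.62 and changed by 0.36, 0.37 and 1.11 there (adjusted p of the difference 0.00169, 0.00219 and 5.14e-05). Fosl1 fell by 1.44 and changed by 0.34, 0.37 and 0.50 (adjusted p of the difference 0.00521, 0.00565 and 0.00268). Of the 10 called members of the EGF receptor list, 6 differed between WT and PKP4-KO, 7 between WT and Rescue and 4 between LCM and HCM. Of all genes called in WT LCM, 22.4% of the rises and 14.6% of the falls differed between WT and PKP4-KO. These shares were 22.9% and 17.7% between WT and Rescue, and 21.8% and 17.3% between LCM and HCM. The members were picked by calls in WT LCM, whose values also enter the difference. Ppbp fell by 2.47 in WT LCM and changed by -0.93, -0.80 and -0.39 in the others (adjusted p of the difference 0.0122, 0.00313 and 0.000176). Epcam fell by 2.21 and changed by -0.40, -0.31 and -0.78 (adjusted p of the difference 0.000533, 0.000307 and 0.00479).

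Differentiation genes changed by other amounts in the other cultures. Krt10 changed by 1.81 in WT LCM, and the difference was -2.97 against PKP4-KO cells (adjusted p = 0.000796), 1.98 against Rescue cells (adjusted p = 0.0358) and -1.58 against HCM (adjusted p = 0.102). Krt15 had its largest rise of the 4 in WT LCM, 3.12 against 2.01 in PKP4-KO cells, -0.18 in Rescue cells and 1.58 in HCM (adjusted p of the difference 0.0657, 2.47e-06 and 0.00883). The medians of the cornified envelope list were 0.98 in WT LCM, 2.88 in PKP4-KO cells, 2.29 in Rescue cells and 2.28 in HCM, and 6, 5 and 8 of its 23 members passed the test of the difference. For glycolysis and hypoxia genes 22 of 28 differed between WT and PKP4-KO cells, where the list median was 1.31 against 0.28 in WT, and 1 differed between LCM and HCM.

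**Figure D5:**
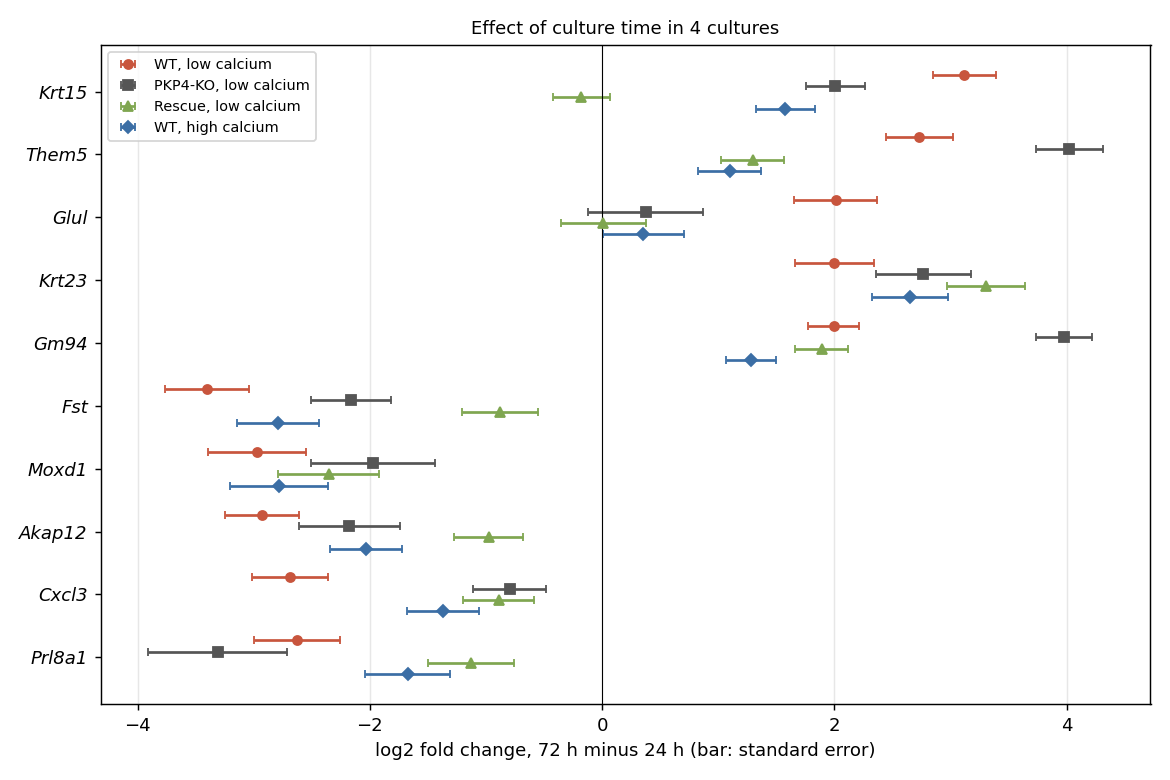
Effect of culture time, as log2 of 72 h over 24 h with its standard error, for the 5 largest rises and the 5 largest falls of WT keratinocytes in LCM among protein-coding genes with at least 10 CPM in the higher group and no overlap of libraries (red circles), beside PKP4-KO cells in LCM (grey squares), Rescue cells in LCM (green triangles) and WT cells in HCM (blue diamonds). Krt15 rises in WT LCM by 3.12 and not in Rescue cells (-0.18), Glul has 2.01 in WT LCM and 0.38, 0.01 and 0.36 in PKP4-KO cells, Rescue cells and HCM (adjusted p of the difference 0.134, 0.021 and 0.0522), and Moxd1 is negative in all 4 (-2.97, -1.97, -2.35 and -2.78).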

How the data were processed

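RNA was sequenced from 36 libraries, 12 groups of 3, as strand-specific, poly(A)-selected paired-end libraries. The authors aligned the reads with HISAT2 2.1.0 to the mouse genome (mm39) with the GFP-PKP4 sequence added, used SAMtools 1.10, and deposited featureCounts 2.0.0 counts of read pairs per Ensembl gene, as whole numbers that had not been normalized. The strand setting of the counting is not given in the sources used here.

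The counts of 55358 genes were analysed in R 4.3.3 with edgeR 4.0.16. Genes were kept by filterByExpr over the 12 groups, which left 15114. TMM factors (trimmed mean of M values) and a quasi-likelihood fit of all 12 groups with 24 residual degrees of freedom followed, and calls used Benjamini-Hochberg adjusted p below 0.05. The interaction tests used the same fit. SE is the size of the log2 fold change over the root of the test statistic. The p-values measure the spread between these libraries. Alternatives were DESeq2 1.42.0, edgeR's exact test, other scalings and filters, a replicate block and the removal of libraries. The scripts were tested on simulated data. The 24 h libraries held 13602728 to 15678952 counts and the 72 h libraries 19463812 to 21658763, and 3 counts, the limit that a count of 0 allows, were 0.156 to 0.175 TMM-scaled CPM at 24 h and 0.119 to 0.15 at 72 h, for counting error only. The 37 mitochondrial genes held no count.

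Genes were named by rule: the gene that heads each list, up to 4 called members of each list per direction by size of change, Pkp4, and the 12 largest rises and 12 largest falls among protein-coding genes with at least 10 CPM in the higher group and no overlap of libraries. Genes outside the rule were chosen after their values were seen. The members and lists were chosen with earlier results of these data known. Coordinates are from the GENCODE annotation of GRCm39, which held 54749 of 55358 gene IDs. Promoter sequences are from RefSeq (GRCm38.p6). Some genes named by this rule are not reported here.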

Additional observations from a re-analysis of the deposited data

Results flagged for a closer look

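The effect of culture time in WT cells in LCM differed from that in other cultures by an interaction test in the fit of all groups (edgeR's quasi-likelihood test, adjusted p below 0.05). It differed for 795 genes against PKP4-KO cells in LCM, for 591 against Rescue cells in LCM and for 657 against WT cells in HCM. The 3 tests share the WT LCM libraries, so they are not independent.

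The leading genes that differed are given as the log2 effect in WT LCM minus the effect in the other culture, in which a positive value is a larger rise or a smaller fall in WT LCM. For Krt15 the difference was 3.29 against Rescue cells and 1.54 against HCM. For Them5 it was -1.29 against PKP4-KO cells, 1.43 against Rescue cells and 1.63 against HCM. For Glul it was 2.00 against Rescue cells, and for Gm94 -1.98 against PKP4-KO cells. For Fst and Akap12 it was -2.53 and -1.95 against Rescue cells. For Cxcl3 it was -1.89 against PKP4-KO cells and -1.80 against Rescue cells. Rescue cells had passed through lentiviral transduction and puromycin selection, which cannot be told apart from the restored gene in these comparisons.

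Groups of 3 libraries are too small for the test for single outlying libraries. The library that stood apart, WT 24 h LCM replicate 1, was recognised by its neuron and glia transcripts, 260 CPM summed over 14 genes against 25.7 and 5.36 in replicates 2 and 3.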

How the results depend on the processing

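Against 1505 genes called for culture time, the count was 1024 to 2129 under the other scalings, filters, tools and samples in the fit, and 2780 with edgeR's exact test. Leaving out single libraries gave 903 to 1219. The interaction counts of 795, 591 and 657 became 556 to 840, 408 to 544 and 467 to 682 in that way. With only the groups compared in the fit they were 395, 383 and 424, and with no filter on low counts 516, 394 and 396. With DESeq2 they were 1111, 900 and 987, and without TMM factors 626, 496 and 445. Deviations of same-numbered libraries from their group means correlated at -0.124, -0.157 and 0.030, and those of differently numbered ones at -0.0404 to 0.161. Deviations within a group offset each other, so this check cannot decide whether the replicate numbers paired the libraries. The replicate block gave 1413 calls, and 767, 573 and 634 for the interactions. Chosen after seeing the data, the block with only the groups compared gave 934, 322, 233 and 286, and the removal of 24 h replicates 1 and 2, where the lone 24 h library is assumed to vary like the other groups, gave 420, 285, 193 and 275. The cause of these shifts was not tested, beyond the smaller number of samples that a removal leaves.

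No called gene considered by name changed sign under any alternative. Signs that turned belonged to genes that were not called. Without TMM factors the log2 fold change was -0.18 for Atf4, -0.15 for Fasn, -0.0455 for Fos, -0.11 for Rhoa and -0.0665 for Trp63. Atf4 was -0.0371 with length offsets. Without single libraries the value ran from -0.24 to 0.0146 for Actb, from -0.0736 to 0.12 for Atf4, from -0.0732 to 0.15 for Fasn, from -0.20 to 0.14 for Ivl and from -0.57 to 0.0123 for Mki67. Without 24 h replicates 1 and 2 it was -0.0979 for Atf4 and 0.13 for Ivl. Of the 150 called genes considered by name, 0 lost the call with DESeq2, 33 without TMM factors and 29 with no filter. Gene length was a limit too, since the median change was 0.11 among genes with a median length of 2407 bases and -0.13 among those with 9342 bases.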

Other observations

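Beyond the genes named by rule, the called genes that differed from all 3 other cultures included Kcnh1, a potassium channel gene of low level, which had 0.264, 0.0583 and 0.104 CPM at 24 h and 2.01, 2.69 and 2.23 CPM at 72 h (adjusted p = 3.02e-06 by edgeR). Its mean at 24 h lay below the level of 3 counts, so that no fold is given. It was chosen after its values were seen. Other runs of neighbors among the tested protein-coding genes moved together. On chromosome 7 Dkk3, Mical2, Parva and Tead1 fell by 0.914 to 1.48 on the log2 scale (111712904 to 112506014, GRCm39), and Parva encodes an actin-binding partner of integrin-linked kinase. On chromosome 13 Asb13, Calml3 and Calm4 rose by 0.702 to 2.53 (3683920 to 3888673), and on chromosome 3 Lor, Prr9 and Sprr2a2 by 1.09 to 1.46 (91987578 to 92164031), a stretch of the epidermal differentiation complex in which Lor encodes loricrin. How often such runs arise among the called genes was not tested.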
